A study of Mus musculus with 14 samples.

Results

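Rab GTPases are small membrane-bound GTPases, and their genes are read here in single retinal ganglion cells (RGCs), the output neurons of the retina. The members were all genes whose symbol is Rab followed by a number and, for some, a letter, and they numbered 59 of 18193 named genes on the array. Membership rests on the symbol alone and used no measured value. The 14 cells were tdTomato+ RGCs from the dissociated retinas of adult mice, 1 array per cell, and they formed 1 group, named here cell 1 to cell 14. The mice were heterozygous for both alleles, as offspring of Parvalbumin-cre animals (129P2/OlaHsd in the labels, segregating C57BL/6 and 129P2/OlaHsd in the methods) and of Ai9 Tomato reporter animals (C57BL/6 and 129 SV in the labels, congenic C57BL/6J in the methods). The labels call their strain background mixed, and the red reporter marks cells in which Cre, following the parvalbumin gene Pvalb, has acted at some time. Fluorescence was uneven in this line, and brighter cells appeared to be easier to pick, so the cells may not sample all RGCs of the line evenly. No source names the animal of a cell. Differences between animals and between cells therefore cannot be told apart, and an SD here describes the spread between cells. With 1 group, no test between groups was possible.

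A Rab protein works as a switch. Exchange factors load it with GTP, a prenyl anchor holds it in the membrane, effectors bind it there to tether, move or fuse vesicles, and GTPase-activating proteins turn it off so that a GDP dissociation inhibitor can carry it back through the cytosol. Each compartment carries its own set: Rab1, Rab2 and Rab6 proteins at the ER and Golgi, Rab5 and Rab4 at early endosomes, Rab11 at recycling endosomes, Rab7 at late endosomes and lysosomes, and Rab3 and Rab27 on secretory and synaptic vesicles. In neurons such as RGCs the same proteins also serve transport along long axons and the release of transmitter.

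The Rab3 genes show how far members of 1 family differed in the number of cells. Rab3a was detected in 14 cells, Rab3c in 6, Rab3b in 1 and Rab3d in 0. The 250 bases before each of their RefSeq transcription starts (mouse build GRCm38.p6, written 5′ to 3′ on the strand of the gene) are shown so that the sequences can be set beside those counts. Capitals mark GC boxes, that is GGGCGG or its complement CCGCCC, with overlapping matches counted.
Rab3a first start, chr8:70754453-70754702, plus strand: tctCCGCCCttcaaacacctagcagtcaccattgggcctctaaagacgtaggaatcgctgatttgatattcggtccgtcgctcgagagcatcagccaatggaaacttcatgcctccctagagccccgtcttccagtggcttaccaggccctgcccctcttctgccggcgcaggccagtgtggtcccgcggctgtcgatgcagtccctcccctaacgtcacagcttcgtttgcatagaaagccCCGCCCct
Rab3a second start, chr8:70754852-70755101, plus strand: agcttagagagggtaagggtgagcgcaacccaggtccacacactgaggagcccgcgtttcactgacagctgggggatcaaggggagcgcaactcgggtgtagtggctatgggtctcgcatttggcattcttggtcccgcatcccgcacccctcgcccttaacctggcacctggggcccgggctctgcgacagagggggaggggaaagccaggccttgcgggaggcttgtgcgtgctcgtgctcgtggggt
Rab3b, chr4:108878820-108879069, plus strand: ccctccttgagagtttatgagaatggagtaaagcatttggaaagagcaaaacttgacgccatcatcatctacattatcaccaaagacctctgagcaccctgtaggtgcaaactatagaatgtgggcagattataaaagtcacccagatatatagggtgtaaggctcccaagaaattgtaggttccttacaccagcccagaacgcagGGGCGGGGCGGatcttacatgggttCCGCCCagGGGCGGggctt
Rab3c, chr13:110280207-110280456, minus strand: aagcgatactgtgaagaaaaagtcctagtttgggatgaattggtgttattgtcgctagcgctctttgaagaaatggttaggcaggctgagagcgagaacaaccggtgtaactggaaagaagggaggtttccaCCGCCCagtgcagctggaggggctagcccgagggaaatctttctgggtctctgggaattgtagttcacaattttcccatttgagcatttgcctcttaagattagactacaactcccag
Rab3d, chr9:21918184-21918433, minus strand: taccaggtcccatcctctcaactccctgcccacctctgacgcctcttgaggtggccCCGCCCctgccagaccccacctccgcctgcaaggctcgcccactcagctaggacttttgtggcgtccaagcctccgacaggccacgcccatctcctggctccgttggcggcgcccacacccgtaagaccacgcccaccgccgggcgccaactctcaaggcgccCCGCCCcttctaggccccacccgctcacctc
The first start of Rab3a held 2 GC boxes and its second start held 0. The window of Rab3b held 4, that of Rab3c held 1 and that of Rab3d held 2, so the number of boxes did not follow the number of cells. A start was matched for 48 of the 59 Rab genes, with 60 starts in all. A GC box lay in 40 of those 60 windows (66.7%), against 32.7% of the windows of all 32851 starts. Counted by gene, with any of its starts, it was present for 19 of 25 Rab genes detected in at least 7 cells, for 13 of 15 detected in 1 to 6 cells, and for 4 of 8 detected in no cell. The core of a cAMP response element (TGACG or CGTCA) lay in 24 of 60 Rab windows, or 40%, against 17.8% of all windows. By gene its counts were 12 of 25, 7 of 15 and 5 of 8 for the same breadth classes. Counts by gene were not made over all named genes, so the shares by window are no baseline for them. Both motifs were searched on both strands. A match describes these letters only.

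Detection in a cell required a signal of 8 or more times the median of its array, so the threshold lay between 64.2 in cell 14 and 439.7 in cell 1. Signals are MAS5 intensities on a linear scale, with no scale in common between probe sets, and genes are therefore compared by their number of cells and not by signal. That number also depends on the probe set, since 1 threshold served every probe set of an array. The probe sets of Rab2a, for example, were detected in 0 to 14 cells. A gene that was not detected may still have been expressed, since a single cell holds little RNA and it was amplified by 35 cycles of PCR. Markers of RGCs were detected at 78.6% ± 9.71 (SD, n = 14) of the 14 measured, with 9 to 13 in each cell and Pou4f3 in none. Of 13 rod markers, 10 were detected in cell 3 and 9 in cell 6, against 1 to 3 in every other cell, and Pde6a was at 0 throughout. Müller glia markers numbered 0 to 7 of 13 per cell, with 7 in cell 6. Amacrine markers numbered 0 to 2 of 12 and bipolar markers 0 to 4 of 10. The mean shares detected per cell were 22.5% for Müller glia, 5.95% for amacrine and 20.7% for bipolar markers. Gad1, Chat, Th, Aqp4 and Apoe were among those in no cell, while other members of these lists were detected in some cells. The number of detected probe sets was lowest in cell 5 (4191) and cell 13 (4362) and highest in cell 12 (11910). The ratio of the 3′ to the 5′ Gapdh control signal, a sign of RNA quality, lay between 1.09 in cell 4 and 2.61 in cell 14.

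Rab genes were detected in many cells. Of the 59, 28 were detected in at least 7 of the 14 cells (47.5%), against 24.8% of all named genes. In all 14 cells 6 were detected (10.2%), against 2.64% of all genes. That count of 6 was 3 with the mean over probe sets in place of 1 probe set, and 10 without cells 5 and 13. Both settings were applied to all genes alike, and the share of all genes in every cell was not computed under them. Between 1 and 3 cells held another 14 (23.7%), against 20.4% of all genes, and 11 were detected in no cell (18.6%), against 41.8% of all genes. The median Rab gene was detected in 6 cells and the median named gene in 1. Among genes detected in at least 1 cell, the medians were 8 cells for 48 Rab genes and 5 cells for 10588 named genes. Of all 826 combinations of a Rab gene and a cell, 366 were detections (44.3%).

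**Figure D1:**
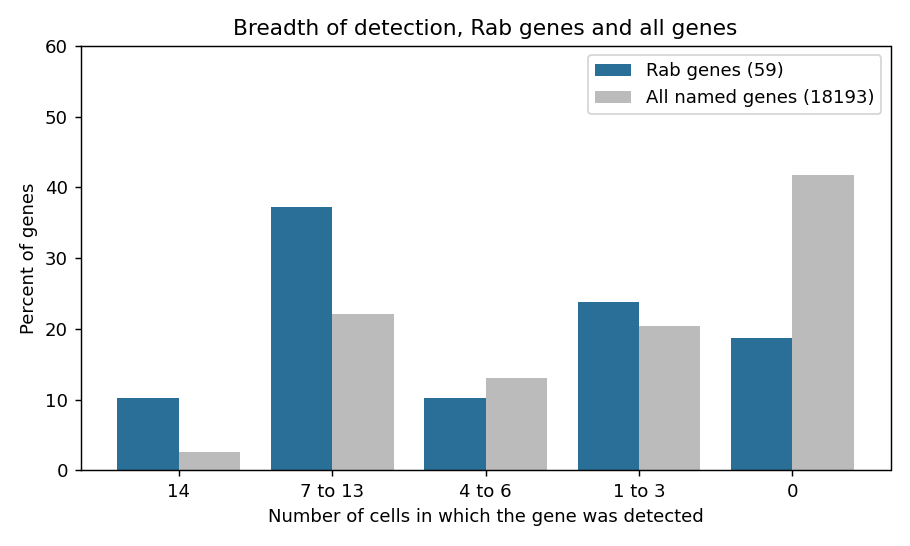
Percent of genes (y axis) by the number of the 14 cells in which a gene was detected (x axis), for 59 Rab genes (blue, left bar) and 18193 named genes (grey, right bar). Rab genes fill the classes of 14 and of 7 to 13 cells with 10.2% and 37.3%, against 2.64% and 22.1% of all genes, and the class of no cell with 18.6%, against 41.8%.

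Most members were measured more than once. For 38 Rab genes there were several probe sets and for 21 there was 1, with 132 probe sets in all, and the one whose mean log2 signal was highest stands for the gene. Of 265 detections in members with several probe sets, another probe set of the gene was detected in the same cell in 180 (67.9%). Of 267 non-detections in them, another probe set was detected in 19 (7.12%). Of the 11 genes detected in no cell, 5 had several probe sets, and 0 of these 5 were detected by any of them.

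The 6 Rab genes of all cells came from 4 compartments: Rab3a from synaptic vesicles, Rab5a from early endosomes, Rab7 from late endosomes, and Rab2a, Rab6a and Rab6b from the ER and Golgi. Rab7, which drives traffic into lysosomes and is carried on signalling endosomes in axons, had signals of 7863 in cell 3, a median of 16705 and 27417 in cell 14. Its mean log2 signal was 14.03 ± 0.54 (SD, n = 14), and this SD was the 10th lowest among the 480 genes detected in all cells, whose median SD was 1.15 with quartiles of 0.83 and 1.58. The highest cell exceeded the lowest 3.49-fold, so this probe set was among the most even of these cells. The other probe set of Rab7 was detected in 12 cells, at up to 12907, and had 71.2 in cell 13 and 44.1 in cell 14, below their thresholds. Rab6b, a neuron-enriched Rab of Golgi transport, had signals of 17020 in cell 4, a median of 35746 and 100882 in cell 13. Its mean log2 signal was 15.15 ± 0.66 (SD, n = 14), with rank 33 of 480 for a low SD. The 3 other probe sets of Rab6b were detected in 10 cells at most, and in cell 5 they had 57.8, 5.93 and 3.28, against a threshold of 65.3. The evenness of both genes is therefore that of the probe set that stands for each.

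Rab3a, the main Rab of synaptic vesicles and of transmitter release, had signals of 11391 in cell 4, a median of 22936 and 61869 in cell 13, with a mean log2 signal of 14.54 ± 0.79 (SD, n = 14). Rab6a, the more widely expressed sister of Rab6b, had signals of 3708 in cell 3, a median of 13552 and 30606 in cell 5, with a mean log2 signal of 13.75 ± 0.79. Other probe sets were detected in 13 cells for Rab3a and in 12 for Rab6a. Both lay in the lower quartile of SDs, at ranks 95 and 100 of 480. Rab5a, the organiser of early endosome fusion, spread further, with signals of 770 in cell 6, a median of 2530 and 7786 in cell 1, and its SD of 1.12 lay near the median of the 480 genes.

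Rab2a, which acts between the ER and the Golgi, had a signal of 244 in cell 3 and of 6196 to 36478 in the other 13 cells, with a median of 17372 over all cells. One cell thus lay far below the other 13. The SD of its log2 signal was 1.76 over 14 cells (rank 393 of 480) and 0.73 without cell 3. In cell 3 another probe set of Rab2a was also detected, at 134.9. For Rab6a the SD was 0.60 without cell 3. Cell 3 held 10 of 13 rod markers, and the part of rod transcripts in these low signals was not tested.

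**Figure D2:**
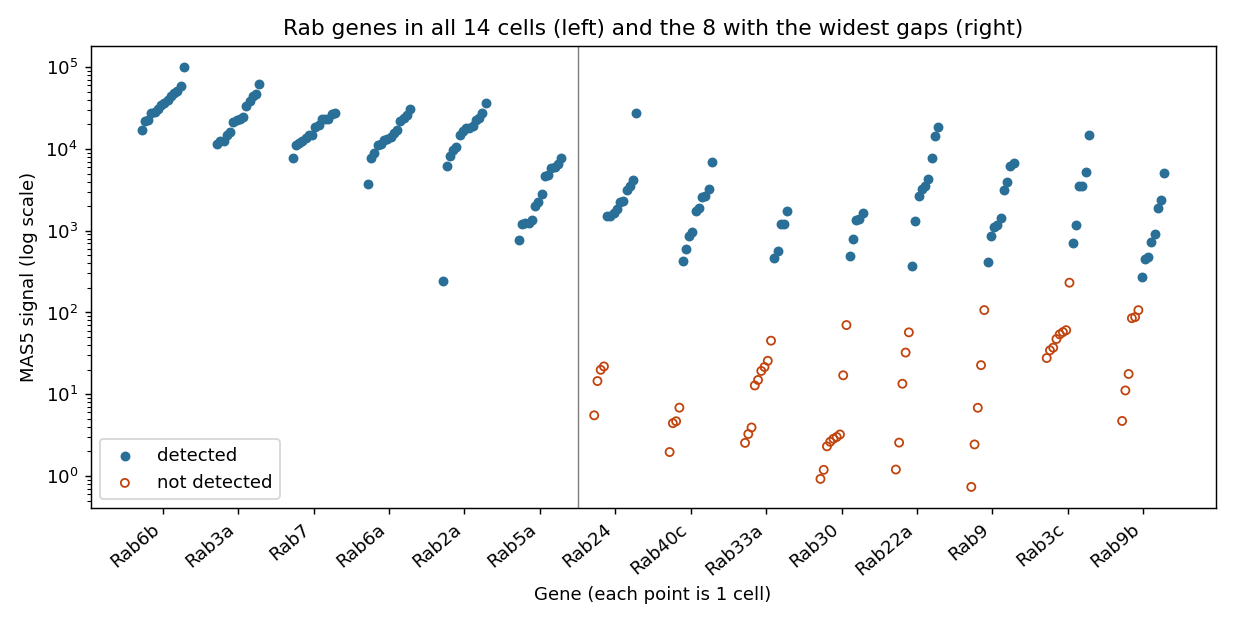
MAS5 signal of each cell (log y axis, 1 point per cell, sorted within a gene) for the 6 Rab genes detected in all 14 cells (left of the line) and the 8 with the widest gap between detected (filled) and undetected cells (open) among those in 4 to 10 cells (right). Rab7 spans 7863 to 27417, 1 cell of Rab2a lies at 244, and no Rab24 signal lies between 21.9 and 1494. Heights of different genes share no scale.

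The secretory and plasma membrane Rabs numbered 13, of which 4 were detected in at least 7 cells, 7 were in 1 to 6 cells and 2 had no detection, with a median of 3 cells per gene. The 4 of 13 are 30.8%, close to the 24.8% of all named genes. The mean number per cell was 4.21 ± 1.48 (SD, n = 14). After Rab3a, Rab10 was the most frequent. Rab10, which inserts membrane at the plasma membrane and in growing axons, was detected in 12 cells at 1037 to 13253 (median 6144) and at no more than 33.9 in cells 5 and 13. Rab15, which acts between endosomes and the cell surface, was detected in 10 cells at 248.7 to 14700. Rab8a, which carries Golgi cargo to the plasma membrane and the cilium, was detected in 7 cells at 268 to 1196 with no clear gap, since an undetected cell reached 352.

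The other secretory Rabs were less frequent. Rab3c, a synaptic vesicle relative of Rab3a, was detected in cells 3, 4, 7, 10, 11 and 13 at 711 to 14663 and reached 231 in the remaining cells. Other probe sets of Rab3c were detected in 8 cells, and 9 cells had at least 1. Rab3b was detected at 945 in cell 12 only and reached 93.1 elsewhere. Rab27b, a Rab of secretory granules, was detected at 622 in cell 12 by the probe set that stands for it and in 3 cells by any of its probe sets. Rab37, known from secretory granules, was detected at 1947 in cell 5, while its other probe set was detected in 0 cells. Rab26, also of secretory granules, was detected at 75.9 in cell 5, close to the threshold of 65.3. Rab13, a Rab of epithelial junctions, had 5686 in cell 11, 1622 in cell 12 and 9414 in cell 14, and no more than 118.8 in the other cells. Rab8b was seen weakly, at 390 in cell 4, 125.4 in cell 6 and 197 in cell 7. The highest signals of the undetected pair were 157 for Rab3d, the Rab3 member of exocrine granules, and 111.4 for Rab27a, which moves melanosomes and lytic granules.

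Of 9 early endosomal Rabs, 5 were detected in at least 7 cells (55.6%, against 24.8% of all named genes). Another 2 were in 1 to 6 cells and 2 had no detection, and 4.57 ± 1.22 were detected per cell (SD, n = 14). Rab4a and Rab4b, which return receptors from early endosomes to the surface, were detected in the same 13 cells and both were undetected in cell 10. Rab22a, an early endosomal Rab that sorts cargo for recycling, was detected in 9 cells at 366 to 18429 and at no more than 57.1 in cells 3, 5, 8, 11 and 14. Other probe sets of Rab22a added cells, so that 12 cells had at least 1. Rab5c was detected in 7 cells at 93.8 to 2506, Rab21, which traffics integrins, in 5 at 191 to 6901, and neither had a clear gap to its undetected cells. Rab5b was detected at 177 in cell 2, 4880 in cell 3 and 1365 in cell 14. Rab20 and Rab31 were in no cell and reached 85.4 and 130.5. Of the Rab5 genes, then, Rab5a was found in every cell and its sisters in 7 and 3.

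Of 6 recycling endosomal Rabs, 4 were detected in 11 to 13 cells, 1 in 1 cell and 1 in none, so that 66.7% were in at least 7 cells, against 24.8% of all named genes. Differences between the roles were not tested. Rab11b, a recycling Rab abundant in brain, was detected in 13 cells at 4969 to 56120 (median 18553) and had 7.18 in cell 5. Rab11a was detected in 12 cells at 504 to 24450. It had 359 in cell 1, under the high threshold of that array, and 8.80 in cell 14, but other probe sets were detected in both cells. Rab14, which links the Golgi to endosomes, was detected in 13 cells at 2666 to 40968 (median 8276) and had 23.3 in cell 3. Rab35, which returns cargo to the plasma membrane, was detected in 11 cells at 94.0 to 24781 with no clear gap. Rab17, best known from epithelia, was detected at 688 in cell 6, where its other probe set was also detected. Rab25, an epithelial relative of Rab11, reached 41.8 and was in no cell.

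Of 9 late endosomal, lysosomal and autophagic Rabs, 5 were in at least 8 cells and the other 4 had no detection. The 5 are 55.6% of this role, against 24.8% of all named genes in at least 7 cells. After Rab7, Rab24, a Rab of autophagy, was detected in 10 cells at 1494 to 27892 (median 2261), while cells 8, 10, 13 and 14 reached no more than 21.9. This was the widest gap of any Rab gene in 4 to 10 cells, and its other probe set was detected in the same 10 cells. Rab9, which returns receptors from late endosomes to the Golgi, was detected in 9 cells at 411 to 6766 and reached 106.9 in cells 5, 6, 8, 13 and 14. Rab9b was detected in 8 cells at 272 to 5025 and reached 106.8 elsewhere. Rab12, which sends receptors to lysosomes, was detected in 9 cells with signals up to 3001, and its other probe set was detected in 0. The 4 undetected members were Rab7b, Rab29, Rab32 and Rab38, with highest signals of 69.3, 36.7, 105.3 and 105.3. Rab32 and Rab38 are known from melanosomes, and Rab29 binds the kinase LRRK2 in human cells.

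The ER and Golgi Rabs were the largest set. Of 16, 9 were detected in at least 7 cells (56.25%, against 24.8% of all named genes). Another 6 were in 1 to 6 cells and 1 had no detection, and 9 ± 2.32 were detected per cell (SD, n = 14). Rab1a, which opens the path out of the ER, was detected in 12 cells at 4286 to 32444 (median 10521). The remaining cells had 3.13 in cell 5 and 38.6 in cell 14, but another probe set read 3199 in cell 5. Rab1b was detected in 8 cells, all of which also held Rab1a. Rab2b was detected in 13 cells at 298 to 16735 and had 2.60 in cell 5, and Rab18, a Rab of the ER and lipid droplets, was detected in 12 cells at 1106 to 43077.

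Further Golgi Rabs were found in part of the cells. Rab33b, a Golgi Rab that binds autophagy machinery, was detected in 8 cells at 349 to 6727, and Rab39b, whose human gene is linked to intellectual disability and parkinsonism, in 7 cells at 145.7 to 5115. Rab33a was detected in cells 2, 4, 6, 7 and 12 at 461 to 1725 and reached 45.2 elsewhere. Rab30, a Golgi Rab, was detected in cells 1, 4, 6, 9 and 12 at 497 to 1657 and reached 70.1 elsewhere. The other probe set of Rab30 was detected in cells 6 and 13 only, at 1617 in cell 13. By the chosen probe sets, cells 4, 6 and 12 held both Rab33a and Rab30. Cells 12 and 4 also had the most probe sets detected (11910 and 11427), and the part of depth was not tested. Rab36, a Golgi Rab that positions late endosomes, had 11591 in cell 3, 19304 in cell 5, 22008 in cell 13 and 17007 in cell 14, only 115.5 in cell 4 and 237 in cell 6, and no more than 219.5 elsewhere. Its 4 high cells were among the 5 with the fewest probe sets detected, the part of depth was not tested, and its other probe sets were detected in 3 cells. Rab43 was detected in cells 2, 3, 9 and 11 at 744 to 13085, while its other probe sets were detected in 0. Rab34, a Rab of the Golgi and cilium, had 1670 in cell 7, 7586 in cell 11 and 19282 in cell 13, and its second probe set was detected in the same 3 cells. Rab39 had 498 in cell 12, and Rab19 was in no cell and reached 63.5.

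Of the remaining 6 genes, of the cilium and of other roles, 1 was detected in at least 7 cells (16.7%, against 24.8% of all named genes). Another 4 were in 1 to 3 cells and 1 had no detection. Rab40c, a Rab with a SOCS box that recruits ubiquitin ligase, was detected in 10 cells at 421 to 6836 and at no more than 6.85 in cells 2, 3, 4 and 8, while its other probe set was detected in 0. Rab23, which holds back Hedgehog signalling at the cilium, had 260.3 in cell 4 and 9387 in cell 8, and other probe sets brought it to 6 cells. Rab28, a Rab of the photoreceptor cilium whose human gene is linked to cone-rod dystrophy, had 1230 in cell 4 and 381 in cell 9. Its other probe set was detected in 3 cells. Cells 4 and 9 held 2 and 1 rod markers, and the part of rod transcripts was not tested. Rab42 had 158 in cell 12 and 1997 in cell 13. Rab40b had 122.5 in cell 13, below a signal of 285 in an undetected cell with a higher threshold. Rab44 was in no cell and reached 120.4.

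**Figure D3:**
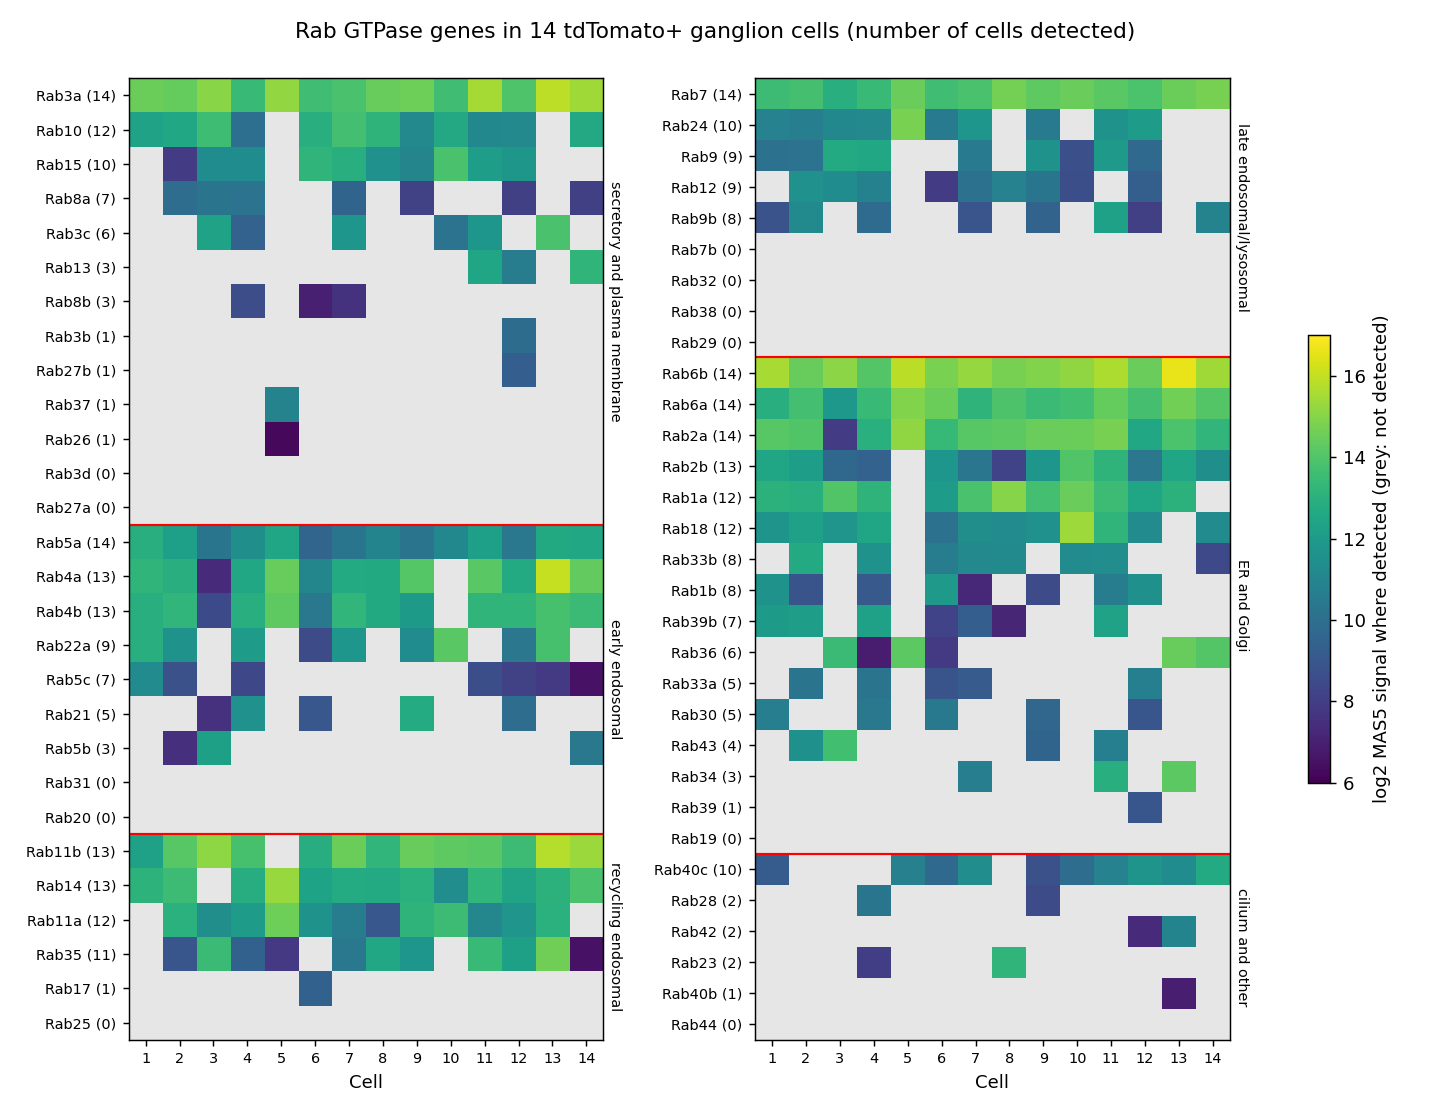
Log2 MAS5 signal (colour) of 59 Rab genes in rows by role, with the number of cells detected beside the name, in 14 cells (columns). Grey means not detected and red lines part the roles. The rows of Rab3a, Rab5a, Rab7, Rab2a, Rab6a and Rab6b are filled, 11 rows are empty, and cell 5 has the fewest filled squares (16).

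The number of Rab genes differed between cells as the number of all genes did. Cell 4 held 35 and cell 12 held 34, while cell 5 held 16 and cell 10 held 20, with a mean of 26.1 ± 5.65 (SD, n = 14). As a share, 44.3% ± 9.58 of Rab genes were detected per cell, against 25.2% ± 7.21 of all named genes. The Rab share was above the share of all genes in 14 of 14 cells, by 1.48-fold in cell 1 and by up to 2.51-fold in cell 13. Over the 14 cells the shares went together (Pearson's r 0.90, Spearman's rho 0.91), and both come from the same array and its depth. The Rab share showed little relation to the number of rod markers (r 0.01) or to the Gapdh ratio (r −0.28).

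**Figure D4:**
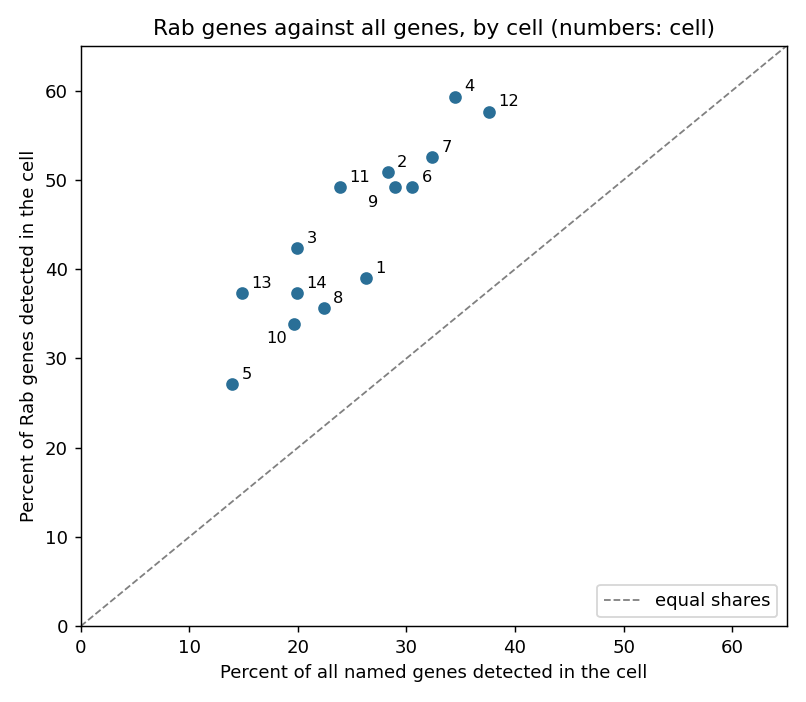
Percent of 59 Rab genes detected in a cell (y axis) against the percent of 18193 named genes detected in it (x axis), 1 point per cell with its number, and a dashed line of equal shares. All 14 points lie above the line, with cell 5 lowest at 27.1% of Rab genes against 14.0% of all genes.

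Of 15 Rab genes, chosen here for their detection in at least 12 cells, the few non-detections fell in 6 cells. By the probe set that stands for each gene, cell 5 had no detection of Rab1a, Rab2b, Rab10, Rab11b and Rab18. In cell 13, which had the next fewest probe sets, Rab10 and Rab18 were undetected, and in cell 14, with the highest Gapdh ratio, Rab1a and Rab11a. Rab4a and Rab4b were undetected in cell 10, Rab14 in cell 3 and Rab11a in cell 1. Another probe set was detected for Rab1a in cell 5 (3199) and for Rab11a in cell 1 (4851) and cell 14 (338.7), so these genes were not missing there. At the other end, cell 12 held 5 of the 14 genes found in 1 to 3 cells: Rab3b, Rab13, Rab27b, Rab39 and Rab42. Cell 12 detected 37.6% of all named genes, the highest share of any cell. How many of all genes found in 1 to 3 cells it held was not computed. It was also the cell with the most probe sets, and the part of depth in its count of 5 was not tested.

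Paralogues were set side by side in 21 pairs, by the probe set that stands for each gene. Rab4a and Rab4b were found together in 13 cells and apart in 0, and Rab6a and Rab6b together in 14. Rab11a and Rab11b were together in 11 cells, with Rab11a alone in 1 and Rab11b alone in 2. Those 2 were cells 1 and 14, where another probe set of Rab11a was detected. Rab2a and Rab2b shared 13 cells, and Rab2a was alone in cell 5. Rab9 and Rab9b shared 7 cells, and 4 cells held neither. In other pairs 1 gene took most cells. Rab7 was in 14 cells and Rab7b in 0, and Rab40c was in 9 cells without Rab40b. Rab39b was in 7 cells and Rab39 in 1 other cell, cell 12, with 0 in common. Another probe set of Rab39b was detected in cell 12 at 1397, so that separation holds only for the chosen probe sets. Rab33a and Rab33b shared 4 cells, with 1 of Rab33a alone, 4 of Rab33b alone and 5 of neither, and Rab8a and Rab8b shared 2.

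Among 28 Rab genes in at least 7 cells, the 378 pairs had a median r of 0.06 on log2(signal + 32), between −0.79 and 0.95, with 7 pairs at 0.7 or above and 5 at −0.7 or below. These correlations describe 14 cells that share array depth, and no test is given. Rab4a and Rab4b were the closest pair, with r 0.95 and rho 0.82 over 14 cells and r 0.69 without cells 3 and 10. Rab4a had 4.57 in cell 10 and 162 in cell 3, against 2094 or more elsewhere, and Rab4b had 95.3 and 352 in the same cells. The other 2 of the top 3 pairs rested on cell 3 or 5: Rab2a with Rab14 had r 0.89 but rho 0.38, and r 0.27 without cells 3 and 12. Rab6a with Rab14 had r 0.75 and rho 0.41, and r 0.07 without cells 3 and 5. The pairs at −0.7 or below were named after their values were seen and are also given without 2 cells. For each pair in this paragraph, the first-named gene alone decided which 2 cells were left out. Low cells of the second gene could therefore stay in, as cell 5 did for Rab12 (4.48) beside Rab6b. Beside Rab5a, cells 5, 13 and 14 stayed in, with Rab15 at 4.24, 1.95 and 3.77. Whether the negative values rest on such cells was not tested. Rab6b with Rab12 had r −0.79 and rho −0.81, and r −0.77 without cells 4 and 13. Rab5a with Rab15 had r −0.79 and rho −0.71, and r −0.77 without cells 1 and 6. Rab6a with Rab8a had r −0.76 and rho −0.79, and r −0.70 without cells 3 and 5, and Rab12 with Rab40c had r −0.76 and rho −0.71, and r −0.76 without cells 5 and 13. Rab6a with Rab9 had r −0.72 and rho −0.75, and r −0.61 without cells 3 and 5.

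**Figure D5:**
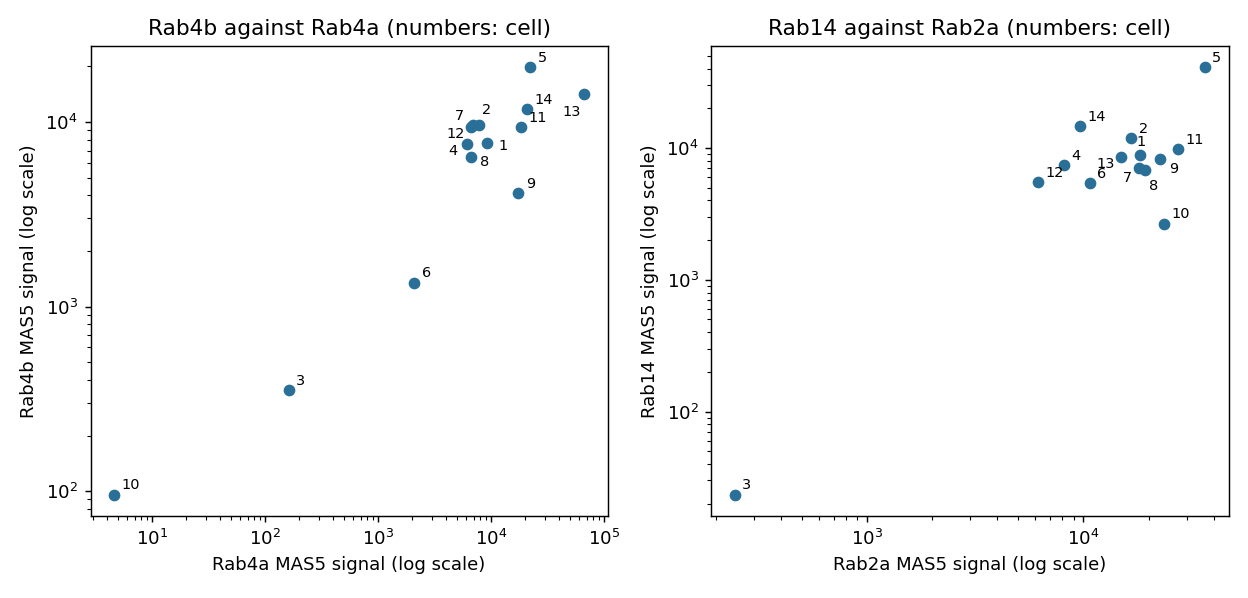
Signals of Rab4b against Rab4a (left) and of Rab14 against Rab2a (right), both axes logarithmic, 1 point per cell with its number. On the left cells 10, 3 and 6 spread along the rise, whereas on the right cell 3 (Rab2a 244, Rab14 23.3) lies alone.

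Pvalb, the gene that defines the reporter line, was detected in 13 cells at 1146 in cell 3 to 65385 in cell 13 and had 7.27 in cell 5. The highest r with Pvalb among the 28 Rab genes were those of Rab2b (0.77, rho 0.50), Rab11b (0.76, rho 0.00) and Rab1a (0.55, rho −0.26). Without cells 3 and 5 these were 0.26, 0.03 and −0.10, so all 3 rested on those cells. The lowest were those of Rab24 (−0.51, rho −0.32), Rab11a (−0.38, rho −0.45) and Rab3a (−0.14, rho 0.19), and without the same cells they were −0.11, −0.10 and 0.57.

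The proteins that load, anchor and read Rabs were followed in lists of 135 genes, of which 127 were measured here. Of these, 4 were detected in all cells, another 47 were in 7 to 13 cells, 52 were in 1 to 6 cells and 24 had no detection, so 40.2% were in at least 7 cells, against 24.8% of all named genes. Of 7 escort and prenylation genes, 4 were in at least 7 cells (57.1%, against 24.8% of all named genes). Gdi2, a GDP dissociation inhibitor that recycles Rabs, was detected in 13 cells at 7130 to 65696 and had 33.6 in cell 5. Rabggtb, a subunit of the enzyme that prenylates Rabs, was in 13 cells at 173 to 3467, with 6.68 in cell 5. Rabac1, a Rab receptor of the Golgi, was in 9 cells, Rabif in 7 and Chm, the Rab escort protein lost in human choroideremia, in 4.

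Of 29 exchange factors measured, 5 were in at least 7 cells, 14 were in 1 to 6 cells and 10 had no detection. The 5 are 17.2%, against 24.8% of all named genes, while their median of 4 cells lay above the median of 1 cell over all genes. These 5 were Dennd1a (12 cells), which activates Rab35, Madd (11 cells), which activates Rab3 proteins, and Dennd5b (11), Dennd6b (10) and Dennd5a (10). Of 38 GTPase-activating proteins, 17 were in at least 7 cells (44.7%, against 24.8% of all named genes) and 4 in none. Tbc1d9b was in all 14 at 902 to 34207, Tbc1d10b in 12, Evi5l in 11 and Tbc1d20, which acts on Rab1, in 10. The subunits of the Rab3 GAP complex differed, with Rab3gap2 in 10 cells and Rab3gap1 in 5.

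Among 19 effectors of secretory Rabs, 6 were in at least 7 cells (31.6%, against 24.8% of all named genes) and 6 in none, and their median of 1 cell equalled that of all genes. Rph3a, rabphilin, which binds Rab3a on synaptic vesicles, was detected in all 14 cells at 11779 to 67095, with a mean log2 signal of 14.35 ± 0.73 (SD, n = 14). The active zone genes Rims1 and Rims3 were in 11 cells each and Rims2 in 9, and Mlph, Sytl1, Sytl4, Unc13d, Exph5 and Mical1 were in 0. From the same list, Sytl2 was in 7 cells at 292 to 16677 and Myrip in 2. Of 20 effectors of endosomal Rabs, 12 were in at least 7 cells (60%, against 24.8% of all named genes). The 2 in none were Rilp and Rab11fip1. Vps41, a HOPS subunit of lysosome fusion, and Rufy3 were in all 14, the Rab11 effectors Rab11fip5 and Rab11fip4 in 13 and 12, and Eea1, the classic Rab5 effector, in 4. Of 12 effectors of ER and Golgi Rabs, 7 were in at least 7 cells (58.3%, against 24.8% of all named genes). They were led by Uso1 (9 cells), the tether p115, and by Golga2, Bicd2 and Golga4 (8 each). Of the kinases and the phosphatase of Rabs, Lrrk2 was detected in cell 2 alone at 319, Ppm1h in cell 9 alone at 213 and Lrrk1 in 0 cells.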

How the data were processed

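Single tdTomato+ RGCs were profiled on Affymetrix Mouse430_2 arrays, from cDNA primed with oligo-dT and amplified by 35 cycles of PCR, after libraries had been screened for Sncg and against rhodopsin and glutamine synthetase. The methods name facilities at more than 1 university for the arrays. A facility for each array was not given in the sources used here. The deposited values were MAS5 signal intensities on a linear scale, which the authors had scaled on each array (2% trimmed mean 500.0). The MAS5 release was not given in the sources used here. Of 45101 probe sets, 64 controls were left out. Names came from the array annotation and a GRCm38.p6 gene table: 34945 probe sets had 1 gene symbol (34741 matched), 932 had several and 9160 were unnamed here. Each gene was read from the probe set whose mean log2 signal was highest. Detection meant at least 8 times the array median (3 on the log2 scale), and 0 of 378 values of 27 control probe sets for other organisms passed. Correlations used log2(signal + 32).

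Values by cell were given for members in all cells, for the 8 with the widest gap among those in 4 to 10 cells and for those in 1 to 3 cells, and in each partner list the 4 genes in the most cells were named. Partners outside that rule were named after their values were seen. Proteins are not shown. The members and lists were chosen with earlier results of these data known. Labels name no animals, no test was run, and precision is limited by the number of arrays. Scripts (Python 3.11.15, pandas 2.3.3, numpy 2.4.6, scipy 1.17.1, matplotlib 3.10.9) were tested on simulated data. Alternatives were other detection thresholds, choices of probe set, quantile normalization and left-out cells.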

Additional observations from a re-analysis of the deposited data

How the results depend on the processing

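The number of Rab genes in at least 7 cells, 28, stayed between 21 (fixed signal of 1000) and 33 (threshold at the 99th percentile of control probe sets) over the alternatives run. The 11 undetected Rab genes became 6 at 4 times the array median, 18 at a signal of 1000, 4 with the control percentile and 6 after quantile normalization. The alternatives were applied to all genes alike. Shares of all named genes in no cell and in every cell were not computed under them. The median share of cells per Rab gene, 42.9%, was 21.4% at a signal of 1000 and also with the mean over probe sets, and the share of all genes in at least 7 cells was 15.3% at a signal of 1000. At that signal the late endosomal count of 5 became 3, the count of 1 for cilium and other roles became 0, and the 51 partners became 26. With the mean over probe sets the partners were 30, the cilium and other count was 0 and the Rab genes in every cell were 3 instead of 6. Without the 2 cells with the fewest probe sets (cells 5 and 13) the Rab genes in every cell were 10, and r with Pvalb turned to −0.63 for Rab11b and −0.22 for Rab1a. No paired analysis was possible because the cells formed 1 group. The causes were not tested. Low signals near the threshold are limited by array background, which differed between arrays, so a cell with a high threshold such as cell 1 could hide signals that counted elsewhere.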
